A study of Sus scrofa with 20 samples.

Results

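The miR-148 and miR-152 family was followed in blood mononuclear cells of pigs before and 6 h after an experimental brain hemorrhage. Its members were taken by name: 5 of the 284 entries counted against pig miRNAs (both arms of miR-148a and of miR-148b, and miR-152), with ssc-miR-148a-3p the most abundant, and 6 of the 608 entries counted against human miRNAs from the same libraries. The latter hold hsa-miR-148a-3p, hsa-miR-148b-3p and hsa-miR-152-3p with their 5p arms. The family itself was chosen by its fold changes between ICH and Control in these same libraries. The animals were female American Yorkshire pigs aged 80 to 90 days and weighing 36 to 41 kg. In the ICH (intracerebral hemorrhage) group, the pig's own blood had been injected under pressure control through a burr hole into the frontal white matter, and cells were collected 6 h afterwards. Control libraries came from blood drawn just before the injection, from animals then untreated, so the groups differ in surgery and time as well as in the hemorrhage, and no sham-operated group was analysed here. There were 10 libraries in each group, and the same replicate numbers, 1 to 10, pair them.

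The 3p arms of miR-148a, miR-148b and miR-152 come from genes on different chromosomes but carry the same seed, the stretch at the 5′ end of a miRNA that pairs with its targets, and so share most predicted targets. The mRNA of DNMT1, the maintenance DNA methyltransferase, is among their known targets. In B cells miR-148a is known to favour plasma cell differentiation, and in dendritic cells the family is known to dampen responses to Toll-like receptor ligands through CaMKII. The 5p arms are the opposite strands of the hairpins, usually the scarcer product.

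The pig genes are annotated in RefSeq on Sscrofa11.1. MIR148A lies on chromosome 18 at 46415213 to 46415280, inside no other annotated gene, and its nearest protein-coding neighbours are NFE2L3 and NPVF. MIR148B lies on chromosome 5 at 19530990 to 19531069, within the interval of COPZ1, which encodes a subunit of the COPI vesicle coat. MIR152 lies on chromosome 12 at 24292249 to 24292328, within the interval of COPZ2, which encodes the paralogous subunit. None of these genes has another miRNA gene within 10000 bp. The nearest protein-coding gene on one side of each locus belongs to one transcription factor family, with NFE2L3 at 164904 bp from MIR148A, NFE2 at 29180 bp from MIR148B and NFE2L1 at 11053 bp from MIR152.

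Libraries held 896960 to 2103685 pig-reference reads, and all 5 pig entries had reads in all 20. For each of the 5 the counts against the 2 references differed by at most 3 reads in any library, so both tables describe the same reads and neither supports the other. The pig entry miR-152 carries no arm in its name. It differed from the human-reference miR-152-3p by at most 2 reads in any library and is taken as that arm. The 3p sequences of the family are near-identical, and how reads that fit more than 1 member were assigned is not given in the sources used here, so the split between members is uncertain.

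Before ICH the family was dominated by miR-148a-3p. Levels are in CPM, the usual depth-scaled read count, after TMM scaling between libraries. miR-148a-3p, the guide strand, had a mean of 7889.5 ± 2321 CPM (SD, n = 10 Control libraries) and ranked 20th of 284 entries. miR-148b-3p had 1802 ± 562 CPM and ranked 46th, and miR-152 had 255 ± 139 CPM and ranked 86th. The 5p arms were scarcer, at 102 ± 34.7 CPM for miR-148a-5p and 56.1 ± 6.55 CPM for miR-148b-5p.

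The order of the 3p arms was the same in each of the 10 Control libraries. Within a library miR-148a-3p exceeded miR-148b-3p by 2.12 ± 0.34 in log2(CPM + 1) (SD, n = 10), a 4.36-fold difference in level. miR-148b-3p exceeded miR-152 by 2.92 ± 0.67 log2 units, or 7.57-fold. miR-148a-3p exceeded miR-152 by 5.04 ± 0.67 log2 units, or 33.0-fold. All of these differences had an exact two-sided sign-flip p of 0.00195 (adjusted p also 0.00195 over 3 pairs of members, n = 10), the smallest that 10 libraries allow. Ligation and amplification favour some miRNA sequences over others in small RNA libraries, so a ratio of reads between different miRNAs is not a ratio of molecules.

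The 3p arms together took 1.01% ± 0.278 of pig-reference reads in Control libraries (SD, n = 10), with 0.672% in the lowest and 1.38% in the highest. In ICH libraries they took 1.22% ± 0.272, from 0.871% to 1.55%, and 9 of 10 pairs showed a larger share after ICH. Of these family reads, miR-148a-3p made up 79.0% ± 3.67 in Control and 83.3% ± 3.81 in ICH, and its part was larger in all 10 pairs. The part of miR-148b-3p was smaller in all 10 pairs, at 18.4% ± 3.37 before and 14.2% ± 3.61 after. That of miR-152 was 2.59% ± 1.05 before and 2.54% ± 0.890 after, larger in 5 pairs and smaller in 5. These parts are shares of the same reads, so a larger part of miR-148a-3p leaves less for the others. The TMM-scaled level of miR-148b-3p was higher after ICH in 6 of 10 pairs and lower in 4. With library totals it was higher in 3.

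The family was chosen with the ICH against Control comparison already known, so its changes are given as a description, without p values, and support no claim about the family. In the pig-reference counts the fitted changes of both arms of miR-148a and of miR-152 were above 0. Those of both miR-148b arms were smaller than their SE. The pairs were less even: 10 of 10 were higher for miR-148a-3p and 8 for miR-148a-5p. For miR-152 and for each miR-148b arm 6 were higher and 4 lower. In the pig-reference counts 3 of the 5 members were past an adjusted p of 0.05 in the higher direction and 0 in the lower (edgeR quasi-likelihood fit with the replicate number as a block). Of all 179 miRNAs tested in that fit, 21.8% passed, 11.7% higher and 10.1% lower. In the human-reference counts 3 of the 5 members tested passed, all higher, against 19.2% of 245, of which 13.1% of those tested were higher and 6.12% lower. Without the block, 0 of 5 members passed in either table, where 0% of all tested passed in the pig-reference counts and 3.67% in the human-reference counts (2.86% higher and 0.816% lower). The median log2 fold change of the 5 members was 0.35 in the pig-reference counts, against -0.04 over all 179. That median is the value of miR-152, and the 5 count both arms of miR-148a and of miR-148b. Both miR-148b arms lay below the median of all 179, at -0.06 and -0.11.

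**Figure D1:**
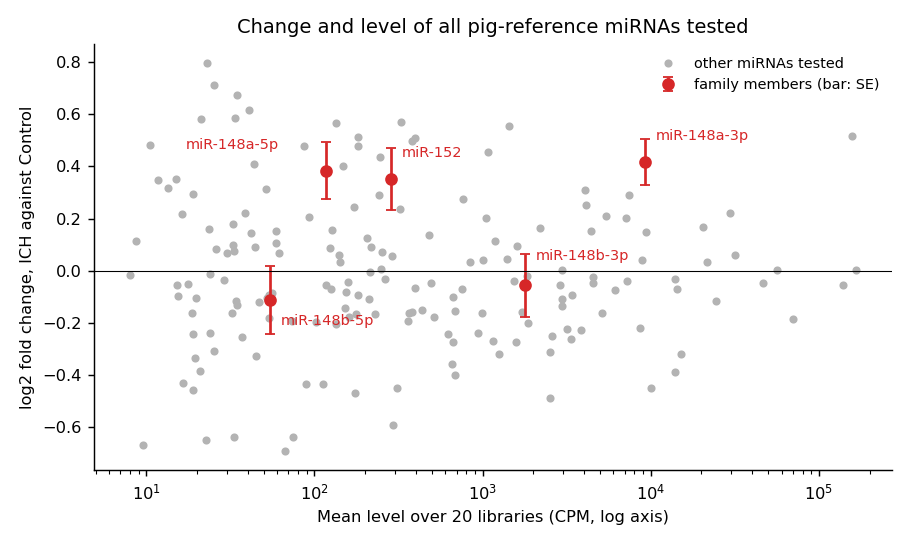
Log2 fold change from Control to ICH (vertical axis) against mean CPM over 20 libraries (horizontal log axis) for the 179 pig-reference miRNAs tested. Red points are the 5 family members, with bars of 1 SE; miR-148a-3p, miR-148a-5p and miR-152 lie between 0.35 and 0.42, and the arms of miR-148b at -0.06 and -0.11.

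miR-148a-3p in Control libraries ran from 4594 CPM (number 3) through a median of 8494 to 11283 (number 5), and in ICH libraries from 6599 (number 1) through 10701 to 14374 (number 8). The groups overlapped, with 4 of 10 ICH libraries above every Control library. Within pairs it was higher after ICH in 10 of 10, by 1.08-fold in number 9 to 1.82-fold in number 4. The fitted log2 fold change was 0.42 ± 0.090 (SE), or 1.33-fold.

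The passenger arm, miR-148a-5p, ran from 56.5 CPM (number 3) through a median of 99.5 to 183 (number 8) in Control libraries. In ICH libraries it ran from 87.8 (number 3) through 125 to 222 (number 8), so that the groups overlapped and only 1 ICH library exceeded all Control libraries. It was higher after ICH in 8 of 10 pairs, and numbers 4 and 5 were at 0.968 and 0.952 of the level before. The fitted log2 fold change was 0.38 ± 0.11 (SE), from 77 to 356 reads per library.

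miR-152 was the most variable of the 5 pig-reference members, with a coefficient of variation of 54.6% in Control and 51.4% in ICH. In Control libraries it ran from 102 CPM (number 4) through a median of 234 to 608 (number 5), and in ICH libraries from 206 (number 2) through 257 to 733 (number 5). Number 5 was the highest library of both groups. Its fitted log2 fold change was 0.35 ± 0.12 (SE), or 1.28-fold. Within pairs it was higher in 6 of 10, and the rise was unevenly spread. It was 2.20-fold in number 4, 1.85-fold in number 7, 1.60-fold in number 8 and 1.47-fold in number 10, while numbers 2, 3, 6 and 9 lay between 0.954 and 0.9997 of the earlier level. The count of higher pairs depended on the scaling: it was 8 with library totals and 10 in the human-reference counts. The 5p arm of miR-152, present in the human-reference table, was barely sequenced, with 10 reads over all Control libraries and 19 over all ICH libraries, and was too scarce to be tested.

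miR-148b-3p in Control libraries ran from 1285 CPM (number 2) through a median of 1519.6 to 2798 (number 6). In ICH libraries it ran from 1070.3 (number 1) through 1625 to 3016 (number 5). The pairs went both ways. The level was 1.79-fold higher in number 4 and fell to 0.620 of its earlier value in number 6, with 6 pairs higher and 4 lower. The fitted log2 fold change was -0.06 ± 0.12 (SE). Its sign was not stable, since it was 0.01 in the human-reference counts and 0.06 with upper-quartile scaling, and with library totals 3 of 10 pairs were higher.

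The scarce 5p arm, miR-148b-5p, ran from 42.7 to 66.5 CPM in Control, with a median of 56.0, and from 39.0 to 68.5 in ICH, with a median of 55.8. Its fitted log2 fold change was -0.11 ± 0.13 (SE), with 6 pairs higher and 4 lower, and was 0.00 with upper-quartile scaling. It had 39 to 137 reads per library. The standard errors of the miR-148b arms leave room for changes of either sign, so no change was detectable at this spread, which does not show that the level was constant.

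**Figure D2:**
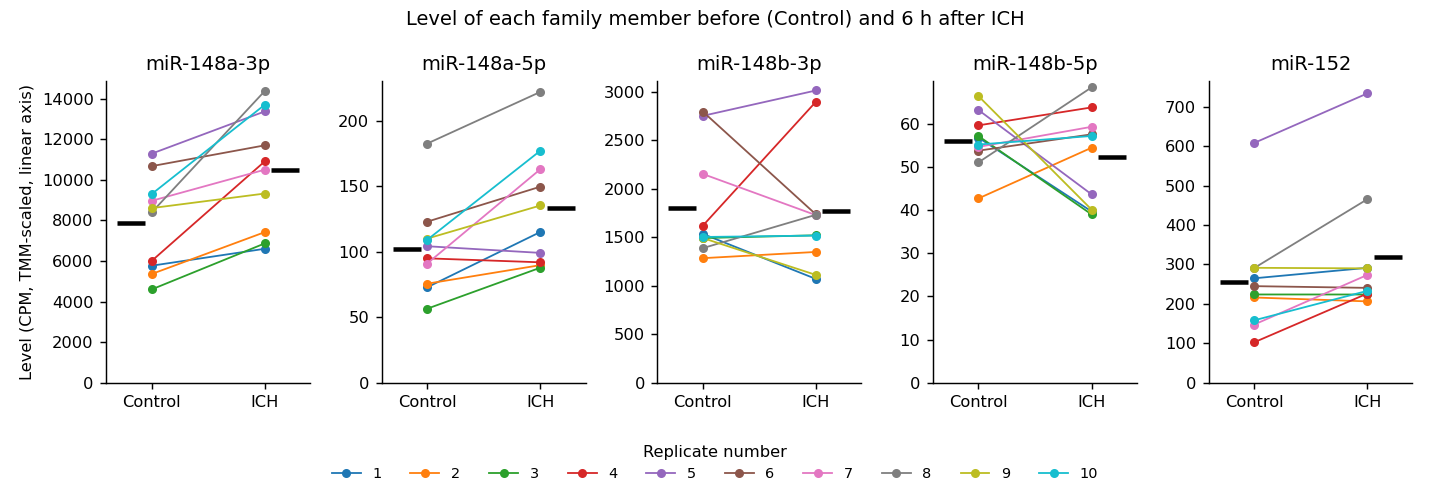
Level in CPM (linear axes from 0) of the 5 family members in the 10 Control and 10 ICH libraries; each coloured line joins the libraries of 1 replicate number and the black bars are group means. All 10 lines of miR-148a-3p rise, 8 of 10 rise for miR-148a-5p, and those of the miR-148b arms cross.

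**Figure D3:**
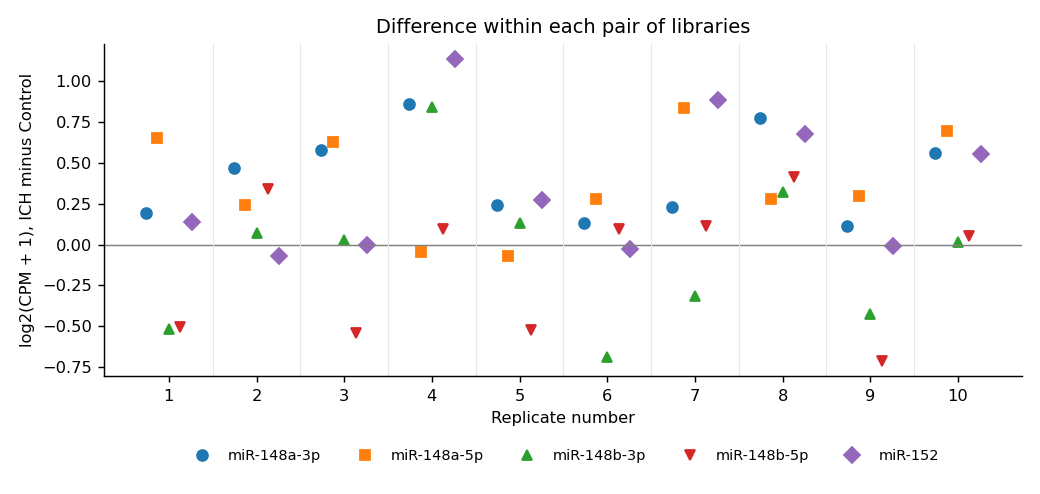
Difference between the ICH and the Control library in log2(CPM + 1) for each replicate number and member. miR-148a-3p lies above 0 in all 10 numbers, and in number 4 miR-148a-3p, miR-148b-3p and miR-152 each reach their largest difference, at 0.86, 0.84 and 1.14.

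Number 4 gave the largest rise of each of the 3p arms. In that pair the 5p arms moved less, by -0.05 for miR-148a-5p and 0.10 for miR-148b-5p. Without number 4 the fitted log2 fold changes were 0.41 for miR-148a-3p, 0.47 for miR-148a-5p, 0.32 for miR-152 and -0.11 for miR-148b-3p. The Control library of number 4 also had the lowest summed level of the erythroid miRNAs miR-451, miR-144 and miR-486, at 110.3 CPM against 292 or more in the other Control libraries. Any link between that level and the rises in this pair was not tested.

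Ratios between members within a library need no scaling between libraries. There were 3.08 to 6.18 reads of miR-148a-3p for each read of miR-148b-3p in Control libraries, with a median of 4.13, and 3.76 to 9.02 in ICH libraries, with a median of 6.12. The ranges overlapped, and the ratio was higher after ICH in 10 of 10 pairs, by 0.47 ± 0.24 on the log2 scale (SD, n = 10). The ratio of miR-152 to miR-148b-3p was higher in 8 of 10 pairs, by 0.41 ± 0.39, and numbers 2 and 3 were the exceptions. Between miR-148a-3p and miR-152 the ratio changed by 0.06 ± 0.36, with 7 of 10 pairs higher.

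**Figure D4:**
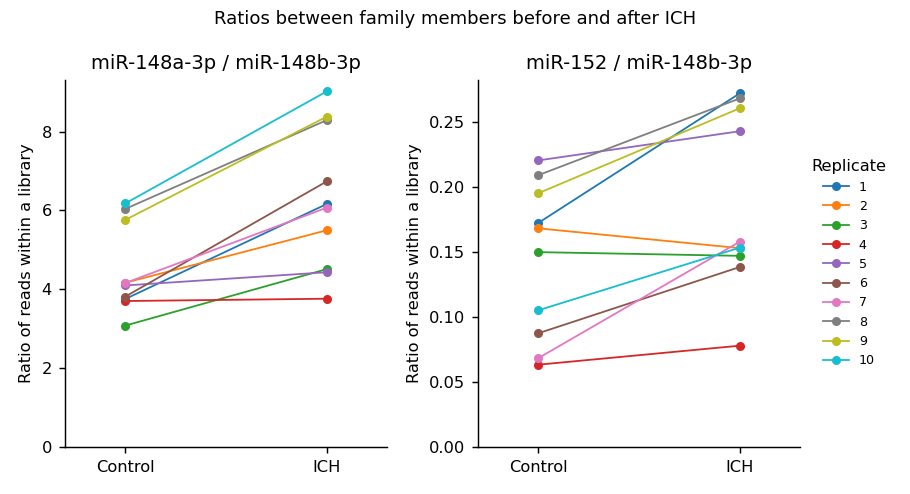
Reads of miR-148a-3p (left) and of miR-152 (right) per read of miR-148b-3p within each library, with lines joining the libraries of a replicate number. The left ratio is higher after ICH in 10 of 10 pairs and the right in 8 of 10.

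The balance of the arms of a hairpin differed little between the groups. There were 77.5 reads of miR-148a-3p per read of miR-148a-5p in Control libraries and 79.4 in ICH libraries, as geometric means. The log2 ratio changed by 0.03 ± 0.46 within pairs (SD, n = 10) and was higher in 4 of 10. For miR-148b the ratios were 30.9 and 32.3, with a change of 0.06 ± 0.50 and 4 of 10 pairs higher.

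Control libraries differed among themselves. miR-148a-3p was at 4594 to 5996 CPM in numbers 1 to 4 and at 8386 to 11283 CPM in numbers 5 to 10, with no library between. After ICH the 4 low numbers were at 6599 to 10908 CPM and the other 6 at 9320 to 14374. Both sets contained small and large rises, 1.15-fold to 1.82-fold in numbers 1 to 4 and 1.08-fold to 1.71-fold in numbers 5 to 10. miR-148b-3p divided differently, with numbers 5 to 7 at 2154 to 2798 CPM and the other 7 Control libraries at 1285 to 1619. Those 3 were also the most deeply sequenced Control libraries, at 1707956 to 2091205 reads against 949545 to 1367440 in the others. Over 20 libraries, after subtraction of the group means, log2(CPM + 1) of miR-148b-3p had a Pearson r of 0.67 with log2 total reads, and that of miR-148a-3p 0.58. For miR-148a-5p, miR-148b-5p and miR-152 r was 0.08, 0.06 and 0.13. The part of depth in these levels was not tested, and the labels give no batch.

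Levels before and after ICH were also set side by side over the replicate numbers. The differences within these same pairs chose the family, so the correlations are a description and carry no p. For miR-148a-5p the levels before and after had a Pearson r of 0.77 and a Spearman rho of 0.72 over 10 pairs, and r was 0.50 without numbers 8 and 3. For miR-152 r was 0.78 and rho 0.72, and r was 0.48 without numbers 5 and 4.

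For miR-148a-3p r was 0.81 and rho 0.68 over all 10 numbers, which span the separate sets of Control libraries. Within numbers 5 to 10, a subset chosen after seeing the data, r was 0.23 and rho -0.03. For miR-148b-3p r was 0.52 and rho 0.54 over all 10 numbers, and 0.34 and 0.04 within the 7 numbers outside 5 to 7, also chosen after seeing the data. For miR-148b-5p r was -0.47 and rho -0.45.

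**Figure D5:**
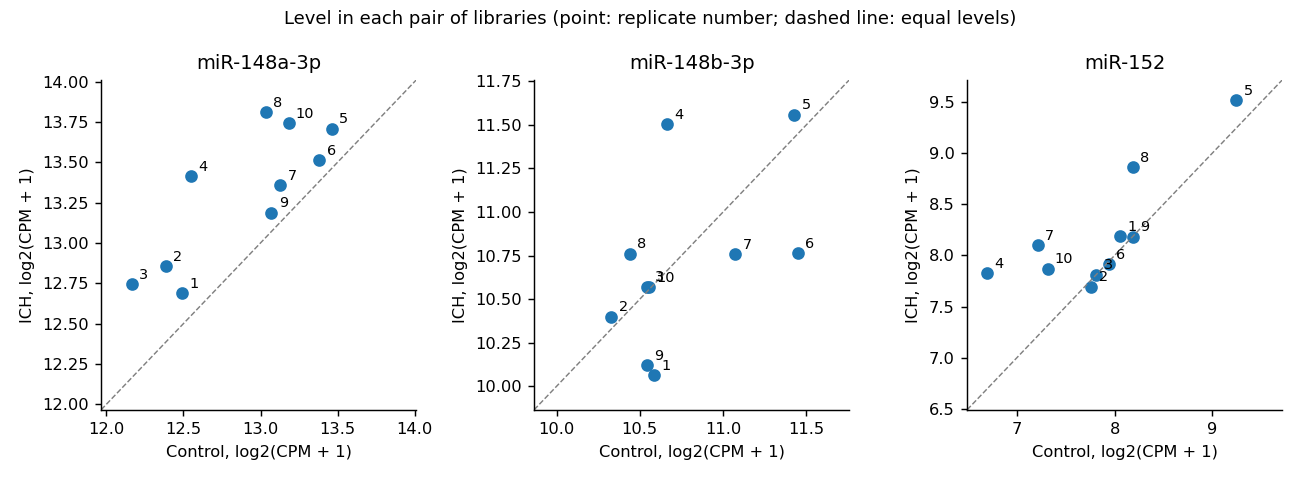
Control (horizontal) against ICH (vertical) level in log2(CPM + 1) of the 3p arms, with each point labelled by its replicate number and a dashed line of equal levels. All 10 points of miR-148a-3p lie above the line, numbers 1 to 4 form the low set before ICH, and number 5 is the highest for miR-152 in both groups.

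The members were also compared with each other across the 10 Control libraries. Of 10 relations between pairs of members, 0 passed an adjusted p of 0.05 (permutation test on Pearson's r, smallest adjusted p 0.0868), and at an unadjusted p under 0.05 there were 2, miR-148a-3p with miR-148a-5p and with miR-148b-3p. Both involve the separate sets of miR-148a-3p. The subsets that follow, numbers 5 to 10 and the 7 outside numbers 5 to 7, were chosen after seeing these Control levels. Their p values are therefore given as a description and cannot serve as tests. Within numbers 5 to 10, r was -0.33 and rho -0.43 between the arms of miR-148a (exact permutation p = 0.561 and 0.419, n = 6). In the same numbers r was 0.88 and rho 0.89 between miR-148a-3p and miR-148b-3p (exact permutation p = 0.0417 and 0.0333, adjusted p = 0.167 and 0.133 over 4 relations, n = 6). That r was 0.39 without the 2 farthest libraries. Over the 7 Control libraries outside numbers 5 to 7 the same relation had r of 0.05 (exact permutation p = 0.92, n = 7). There the arms of miR-148b had r of 0.82 and rho of 0.61 (exact permutation p = 0.0433 and 0.167, adjusted p = 0.173 and 0.667 over 4 relations, n = 7). miR-152 had r of 0.18 with miR-148a-5p and 0.22 with miR-148b-5p (permutation p = 0.614 and 0.529, n = 10).

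Other miRNAs were ranked by how closely they followed a member over the 20 libraries, after subtraction of each group's mean, among those averaging at least 10 CPM. These correlations describe libraries that share animals and depth and carry no p. Closest to miR-148a-3p among 171 pig-reference miRNAs was miR-451, a miRNA of red cells (Pearson r = 0.81). miR-142-5p, found across blood cells (0.73), miR-499-5p (0.73), miR-423-5p (0.73) and miR-361-3p (0.69) followed. Its own 5p arm had r of 0.67, miR-148b-3p 0.62 and miR-152 0.42. At the other end were miR-7134-5p (-0.79) and let-7d-3p (-0.73). Of the 5 closest, miR-142-5p was called lower after ICH and the others were not called.

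For miR-148b-3p, among 225 human-reference miRNAs, the closest were miR-106b-5p (0.90), miR-374a-5p (0.76), miR-142-3p (0.76), miR-365b-3p (0.76) and miR-374b-5p (0.72). None of these 5 was called. Its lowest values were with miR-1343-3p (-0.85) and miR-1306-5p (-0.82). miR-152-3p had weaker companions, led by miR-126-3p, a miRNA of endothelial cells and platelets (0.65). miR-100-5p (0.64), miR-6516-5p (0.63), miR-181c-3p (0.62) and miR-139-5p (0.62) came next. Of these 5, miR-126-3p, miR-181c-3p and miR-139-5p were called higher after ICH in the human-reference fit. The lowest values of miR-152-3p were with miR-33a-5p (-0.68) and miR-221-3p (-0.64).

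Cell-type miRNAs moved between the groups as well, and in bulk libraries fewer cells of a type cannot be told apart from less of a miRNA per cell. The lists were chosen with results of the comparison known, so their counts of calls are a description. All 6 lymphocyte miRNAs also appear in the DNA methyltransferase or B cell list below, so their calls are counted again there. All listed markers had reads in the pig-reference table except miR-223, which was read from the human-reference counts. The lymphocyte list (miR-150, miR-342, miR-29a, miR-29b, miR-181a and miR-181b) had 5 of 6 pig-reference entries called lower, where 10.1% of all 179 were lower, and 0 higher. In the human-reference counts 4 of 10 were called lower, where 6.12% of all 245 were lower. Its summed pig-reference level was 27387 to 40682 CPM in Control and 20736 to 36639 in ICH, lower in 9 of 10 pairs. In the myeloid list (miR-223, miR-23a, miR-27a and miR-24) 3 of 7 human-reference entries were called higher, both arms of miR-223 and miR-27a-5p, and 0 lower, where 13.1% of all tested were higher. That sum was 15832 to 18824 CPM in Control and 17708 to 21332 in ICH, higher in 9 of 10 pairs. In the pig-reference counts, which lack miR-223, 0 of 4 entries were called, where 21.8% of all 179 were. The myeloid sum there was higher in 4 pairs and lower in 6. In the erythroid list miR-486 alone of 3 pig-reference entries was called higher, where 11.7% of all tested were, and the sum went from 110.3 to 911 CPM in Control to 397 to 1327 in ICH, higher in 7 of 10 pairs. In the human-reference counts 2 of 4 entries were called higher, miR-144-3p and miR-486-5p, where 13.1% of all 245 were. The erythroid sum there was higher in 10 of 10 pairs.

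In the platelet and vessel wall list (miR-126, miR-199a, miR-199b, miR-151, miR-10a and miR-10b) 2 of 7 pig-reference entries were called higher, miR-126-3p and miR-10a-5p, and 2 lower, the arms of miR-151. Over all 179 tested, 11.7% were called higher and 10.1% lower. Its sum was 1824 to 3240.2 CPM in Control and 2359 to 3637 in ICH, higher in 6 of 10 pairs. In the human-reference counts 2 of 7 were called higher and 1 lower, where 13.1% and 6.12% of all 245 were. That sum was higher in 7 pairs. Members were also correlated with the lists summed over pig-reference entries, after subtraction of the group means, over 20 libraries. miR-148a-3p had r of 0.67 with the erythroid list. miR-152 had r of 0.69 with it and 0.66 with the platelet and vessel wall list. In Control libraries the erythroid sum and miR-152 were both lowest in number 4 and highest in number 5. miR-148a-3p was also highest in number 5, and r without these numbers is not given. miR-148b-3p had r of 0.76 with the lymphocyte list and 0.70 with the myeloid list. Against the human-reference sums these values of miR-148b-3p were 0.61 and 0.35. There the erythroid list had r of 0.64 with miR-148a-3p and 0.66 with miR-152. The platelet and vessel wall list had r of 0.55 with miR-152. The part of these cell types in the members' changes was not tested.

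Other miRNAs known to act on DNA methyltransferases were counted in the same fit. Of 10 pig-reference entries of that list (miR-29a, miR-29b, miR-29c, miR-126, miR-21, miR-185, miR-101, miR-342 and miR-143), 2 were called higher, 2 lower and 6 did not pass, where 11.7% of all 179 were called higher and 10.1% lower. Its median change was -0.13 on the log2 scale, against -0.04 over all 179. Of 14 human-reference entries 3 were called higher and 2 lower, where 13.1% of all 245 were called higher and 6.12% lower. miR-21, which is induced in activated immune cells, rose by 0.52 ± 0.095 (SE) and miR-126-3p rose by 0.50 ± 0.098. miR-29a and miR-29b, which target DNMT3A and DNMT3B, changed by -0.49 ± 0.094 and -0.43 ± 0.13. miR-185, with 0.29 ± 0.12, did not pass in these counts and did in the human-reference counts. In the list of B cell miRNAs (miR-150, miR-155, miR-181a, miR-181b, miR-34a, miR-125b, miR-17, miR-92a, miR-223 and miR-9), 1 of 9 pig-reference entries was called higher and 3 lower. The shares over all 179 were 11.7% and 10.1%. Of 17 human-reference entries 3 were called higher and 2 lower, where 13.1% and 6.12% of all 245 were. miR-34a was tested in neither table. The entry miR-9@ rose by 0.48 ± 0.12, while miR-150, miR-181a and miR-181b changed by -0.45 ± 0.10, -0.39 ± 0.080 and -0.22 ± 0.079. miR-181b-5p did not pass in the human-reference counts (adjusted p = 0.21, edgeR). miR-155-5p, at 0.11 ± 0.088 on the log2 scale, did not pass, and miR-223 was counted in the human-reference table only. The median of that list was -0.12. These lists were chosen with results of the comparison known.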

How the data were processed

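Small RNA libraries were made from 500 ng of total RNA of density-gradient PBMCs, per the labels' protocols. The authors deposited whole-number read counts per miRNA, unfiltered and filtered, against pig and human references, and RPM values of the filtered counts (on checking, filtered count over library total within 0.00500 RPM). Bcl2fastq, FastQC and Bowtie are the tools listed, and Sscrofa11.1, hg38 and GRCh38 the builds, per the submitters' processing notes. Tool versions, counting rules and the authors' filter were not stated there. The filter removed 0.12% to 0.407% of miR-148a-3p reads and 5.56% to 19.4% of miR-148b-5p reads.

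Groups and replicate numbers came from the sample titles. Unfiltered counts were fitted with edgeR 4.0.16 in R 4.3.3 (filterByExpr, TMM, robust quasi-likelihood) with the replicate number as a block, since the series' design text describes a blood sample before ICH and a second 6 h later. The Benjamini-Hochberg method over all miRNAs tested gave the adjusted p values, with a threshold of 0.05. Standard errors derive from the fold change and F statistic. Deviations from the group means were correlated between libraries sharing a number (pig-reference r of 0.13 to 0.769, all 10 over 0.1; median of -0.06 between other numbers). Chi-square per degree of freedom between libraries of a group was at least 20.3, so none was a duplicate of another in its group. Control and ICH libraries were not compared in this way. The labels name no animal, so p values cover the spread between these libraries.

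Member levels used log2(CPM + 1); arm and member ratios added 0.5 to each count. Correlations between members used permutation tests with 100000 resamples, or exact enumeration for 8 or fewer points; those before against after ICH are given without p, since the paired differences chose the family. Differences in level between members used the exact sign-flip test (scipy 1.17.1). Named miRNAs were all members, the 5 closest and 2 least alike by correlation, and called or first-listed entries of fixed lists. The members and lists were chosen with earlier results of these data known. Fits were tested on simulated data. Alternatives were other scalings, DESeq2 1.42.0, filters, the block, left-out numbers and the other reference. Reads carry no molecular identifiers.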

Additional observations from a re-analysis of the deposited data

How the results depend on the processing

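The count of calls depended on the replicate block. With it, 39 pig-reference and 47 human-reference miRNAs were called. With no replicate block the counts were 0 and 9 (edgeR; 35 and 45 at an unadjusted p under 0.05, smallest adjusted p 0.0505 and 0.0235), while DESeq2, run with the block, called 46 and 50. Leaving out 1 replicate number gave 27 to 59 and 32 to 61 calls, the most without number 4 (59 and 61). Scaling moved the split of calls: 21 higher and 18 lower in the pig-reference counts became 35 and 9 with upper-quartile scaling, and 32 and 15 in the human-reference counts became 18 and 29 with it and 15 and 24 with library totals.

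Scaling also shifted the median log2 fold change of all miRNAs tested, which was -0.04 as reported, 0.08 with upper-quartile scaling and -0.09 with library totals in the pig-reference counts. Taken relative to that median, the change was 0.44 to 0.46 for miR-148a-3p, 0.39 to 0.43 for miR-148a-5p, 0.35 to 0.40 for miR-152, -0.02 to 0.01 for miR-148b-3p and -0.09 to -0.07 for miR-148b-5p over the pig-reference settings other than left-out numbers. The fits reuse the libraries and the comparison that chose the family. The counts of passes that follow therefore describe the settings only and lend the changes no support. miR-148a-3p was past the threshold in 6 of 7 other settings (not without the block) and with each of 10 numbers left out. miR-148a-5p and miR-152 passed in 5 of 7 (not without the block or with library totals) and in 8 and 6 of 10. miR-152 lost its call without number 5, 7, 8 or 10 and miR-148a-5p without 7 or 10. Log2 fold changes with 1 number left out were 0.39 to 0.47, 0.33 to 0.47 and 0.29 to 0.41 for these 3. The order of levels kept its direction and call in the alternatives run. Changes of the arm ratios kept their direction there, but were small against their spread and were not tested.

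The correlation of miR-148a-3p before and after ICH was 0.23 in numbers 5 to 10, a subset chosen after seeing the data, against a pooled 0.81. Relations between members that changed sign were those of miR-148a-5p with miR-148b-3p (r = -0.19 in ICH libraries and -0.12 without numbers 5 to 7), of miR-148b-5p with miR-152 (-0.10 in ICH libraries), of miR-148b-3p with miR-152 (-0.48 without numbers 5 to 7) and of the arms of miR-148a (-0.33 in numbers 5 to 10). The subset without numbers 5 to 7 was also chosen after seeing the data. None of these relations passed an adjusted p of 0.05 in the settings run, and the cause of the changes was not tested. Counts of 39 to 137 reads limit the precision of miR-148b-5p.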
